A study of Mus musculus with 3 samples.

Results

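The clustered protocadherins are 57 protein-coding genes of GENCODE M21 whose symbol is Pcdha, Pcdhb or Pcdhg followed by a number or by a letter and a number, out of 21938 protein-coding genes outside the mitochondrial chromosome. They comprise 14 α genes, 22 β genes and 21 γ genes, all on the plus strand of mouse chromosome 18 between 36930184 and 37841873 of mm10, a stretch of 911.69 kb. A pair of gene models carries the symbol Pcdha11, and both were kept. The assay was DNase-seq, in which the enzyme DNase I cuts accessible DNA and the cut sites are sequenced. The tissue was liver of embryos at 13.5 days from mice of strain C57BL/6N,129 with an HS2 HS3 deletion, recorded as a homozygous (HOM) globin mutation. All samples formed 1 group with 3 biological replicates and all carried the deletion, so no comparison of genotypes was made. The labels give the same donor identifier for all 3, so the spread between them may be partly technical, and whole liver mixes cell types.

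Clustered protocadherins are cell adhesion proteins of the cadherin superfamily, best known from neurons, where each cell uses a small and partly random choice of them as a surface identity that lets its branches recognise and avoid one another. In the α and γ clusters each variable exon has its own promoter and encodes the extracellular part, and splicing joins it to constant exons shared by the whole cluster, while each β gene is a single exon. Most variable promoters carry a conserved element with a CGCT core, bind CTCF, and contact distal enhancers through loops that need cohesin. The C-type genes (Pcdhac1, Pcdhac2, Pcdhgc3, Pcdhgc4 and Pcdhgc5) are known to be used more uniformly. Outside neurons the promoters are known to be held silent with the help of DNA methylation and the chromatin protein Smchd1.

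A gene counted as open if its promoter held a peak, meaning one that came within 500 bp of a start of any of its transcripts. Each replicate came with a shorter and a longer peak list, and peak signal in both means peak cut density after scaling for sequencing depth. A promoter without a listed peak can still have cuts, so its signal is given as 0 only in the sense that none was listed. The labelled tissue was checked against marker promoters: 12 of 14 genes of erythroid cells were open in all 3 replicates in the shorter list, with Tfrc, Nfe2 and Epor the strongest. Among them were Gata1 at 2.16 ± 0.679 (SD, n = 3) and Klf1 at 2.68 ± 0.469 (SD, n = 3), transcription factors of red cell precursors, and Alas2 was the 1 gene of the list with no shorter-list peak. Of 12 genes of hepatoblasts, the precursors of hepatocytes, 1 was open in all 3, Cebpa, and neither Alb nor Afp had a peak in the shorter list in any replicate. Replicates 1, 2 and 3 had 28209, 57314 and 41319 shorter-list peaks, and the signal steps imply 79.4, 119.5 and 132.7 M cuts if 1 step is 1 cut.

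None of the 57 promoters was open in all 3 replicates in the shorter list, whereas 50.9% of all protein-coding genes were. Per replicate, in order from 1 to 3, the count was 0, 6 and 1, beside 51.5%, 57.5% and 55.5% of all genes. At least 1 replicate had an open promoter for 6 members, against 58.9% of all genes, and all 6 were γ genes. In the longer list 2 members were open in replicate 1, 14 in replicate 2 and 8 in replicate 3, where all genes reached 57.1%, 62.2% and 60.7%. Only Pcdhgc3 and Pcdhga12 were open in all 3 replicates in the longer list, against 55.7% of all genes. A base with a false discovery rate (FDR) of the local cut density below 0.05 lay within 500 bp of a start in all 3 replicates for 3 members, Pcdhgb6, Pcdhga12 and Pcdhgc3, against 56.8% of all genes. The share of open members was thus far below that of all genes by each of these measures, and 43 of the 57 had no promoter peak in either list in any replicate.

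**Figure D1:**
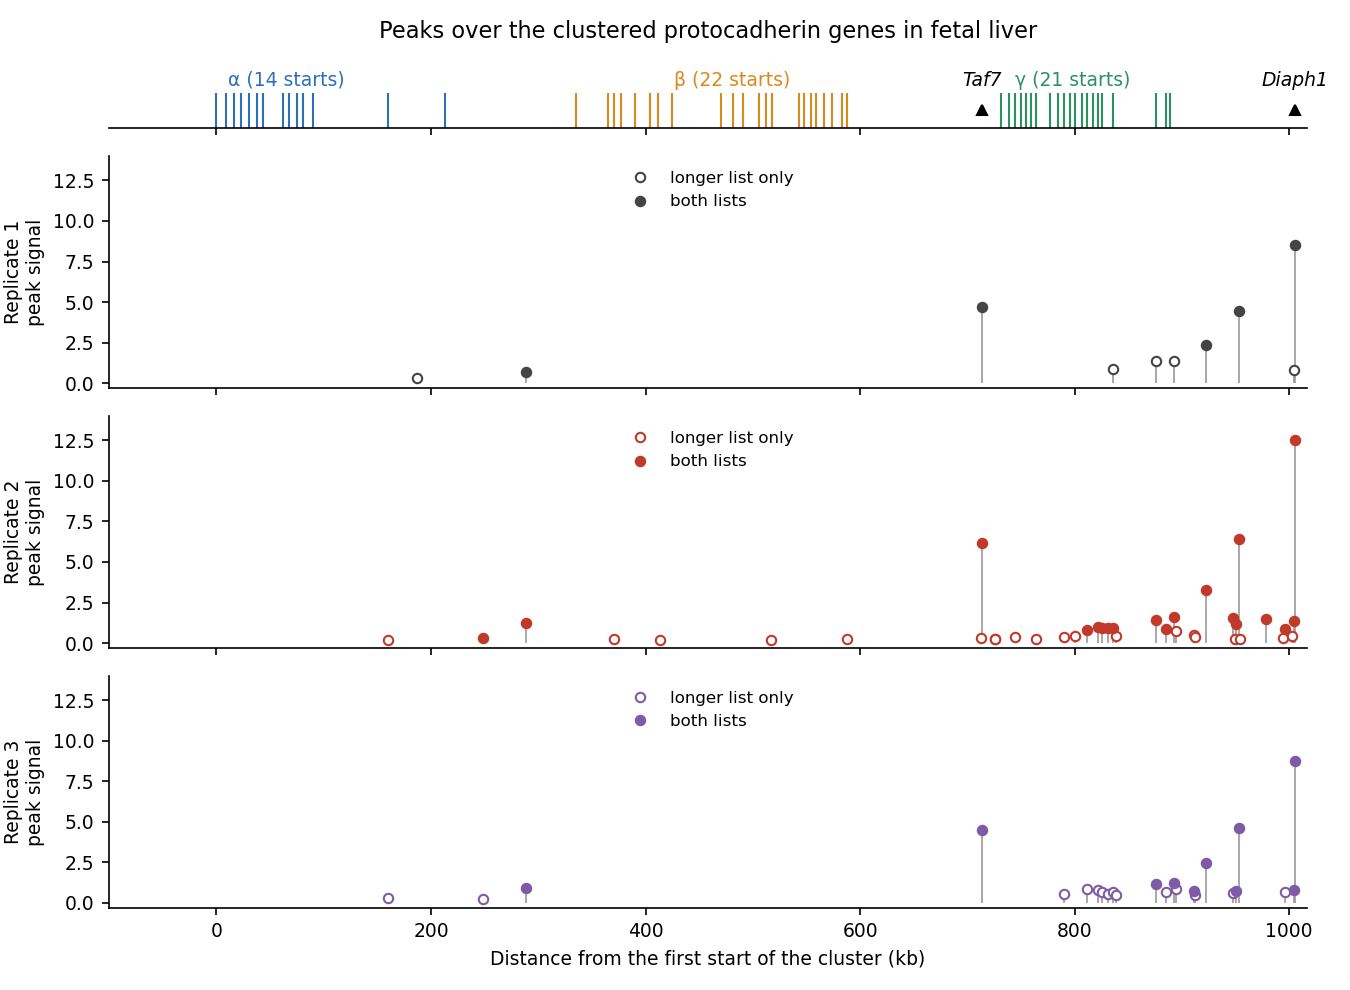
Peak signal (depth-scaled cut density) of every listed peak in each replicate, plotted against the distance in kb from the first start of the cluster, with 100 kb on either side. Filled points are in both lists and open points in the longer list only, and the ticks at the top are the starts of the α, β and γ genes with triangles for Taf7 and Diaph1. The α and β stretches are almost free of peaks, weak peaks gather towards the end of the γ genes, and the tallest are at Taf7 and in and at Diaph1.

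Accessibility of promoters rises with their content of CpG dinucleotides in these data too, so the members were set beside genes of like CpG ratio, the observed over expected number of CpG. The ratio was taken within 500 bp of the outermost start only, whereas a gene could be open at any start. The ratio and the peak of a gene can therefore belong to different promoters. Their median ratio was 0.682 for α, 0.378 for β and 0.594 for γ genes, beside 0.552 for all genes, so by this ratio the α and γ promoters are not poor in CpG. By number they had fewer, with a median of 35.5 CpG for α and 33 for γ genes, beside 41 for all genes. Their median GC content was 45.4% and 47.1%, beside 54.7%, and the deciles below match the ratio only. The members fell in deciles 2 to 9 of all genes, with 14 each in deciles 5 and 7. Of all genes in decile 7, 79.7% were open in all 3 replicates in the shorter list, and in decile 5 it was 48.4%, while none of the 14 members in either was open. The share of 32-base words within 500 bp of the start that occur once in the genome was 69.4% to 100% over the members. Its median was 78.8% for α genes, against 100% for β and 98.5% for γ genes, and the part of this in the α counts was not tested.

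**Figure D2:**
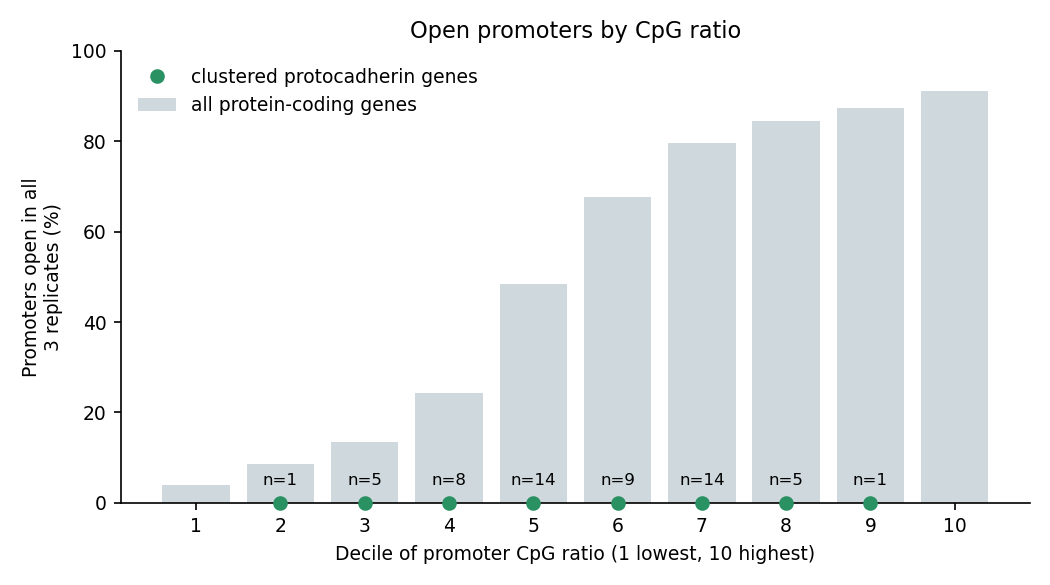
Share of promoters open in all 3 replicates in the shorter list (%), by decile of promoter CpG ratio, for all protein-coding genes (bars) and for the clustered protocadherin genes (points, with the number of members in each decile). The bars rise from 3.92% to 91.0%, and all points lie at 0.

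In the α cluster 1 of 14 promoters had any listed peak. Pcdhac1, a C-type gene, had signals of 0.184 in replicate 2 and 0.286 in replicate 3 in the longer list and none in replicate 1. These peaks were in no shorter list, and the lowest FDR at that promoter was 0.0105 and 0.0242. Pcdhac2, the other α gene of C type, had neither a peak nor a base under an FDR of 0.05 in any replicate, and the same held for all 12 of the alternate α genes. The α stretch as a whole had 0.0649%, 0.111% and 0.0482% of its bases under that limit in replicates 1, 2 and 3, compared with 0.62%, 1.15% and 0.87% of the genome.

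The β cluster was also sparse. Pcdhb3, Pcdhb14 and Pcdhb22 had longer-list signals of 0.226, 0.201 and 0.226 in replicate 2 and no listed peak in the other replicates. The other 19 β promoters had none. Over the β stretch 0%, 0.159% and 0% of bases passed the FDR limit, so all bases listed there came from replicate 2.

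The γ cluster held all the promoters that reached the shorter list. Pcdhgc3, a C-type gene, was the strongest, with longer-list signals of 1.39, 1.45 and 1.17 in replicates 1, 2 and 3, a mean of 1.33 ± 0.147 (SD, n = 3). Its peak was in the shorter list in replicates 2 and 3 but not in replicate 1, although the signal there was higher than in replicate 3. The lowest FDR at Pcdhgc3 was 0.00289, 2.76e-11 and 5.98e-06 in the same order, and replicate 1 has the lowest implied depth. Pcdhga12 followed with 0.895, 0.912 and 0.686, a mean of 0.831 ± 0.126 (SD, n = 3), and entered the shorter list in replicate 2 only. These are the 2 members whose signal was listed in every replicate, and their ranges did not overlap.

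A second set of γ promoters was listed in replicates 2 and 3 and not in replicate 1. Pcdhgb7 had signals of 0.962 and 0.776, Pcdhga11 0.929 and 0.655, Pcdhgc4 0.895 and 0.648, and Pcdhgb6 0.795 and 0.874. All 4 were in the shorter list in replicate 2 and in the longer list only in replicate 3. Pcdhgb4 had 0.385 in replicate 2 and 0.580 in replicate 3, in the longer list only. Pcdhga3, Pcdhga5 and Pcdhgb5 were listed in replicate 2 alone, at 0.343, 0.276 and 0.427. Pcdhgc5, the C-type gene nearest to the constant exons, had no peak within 500 bp of a start. The polymorphic pseudogene Pcdhgb8, which lies among these genes and is not counted with them because it is not annotated as protein-coding, had 0.904 and 0.535 in replicates 2 and 3 and was singled out after its values were seen. By type, 4 of 12 A-type, 4 of 6 B-type and 2 of 3 C-type γ promoters were listed in at least 1 replicate. Each of these was listed in replicate 2, where 62.2% of all genes were open in the longer list. The B-type and C-type shares were thus near that of all genes in that replicate, and the A-type share, 33.3%, was below it.

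**Figure D3:**
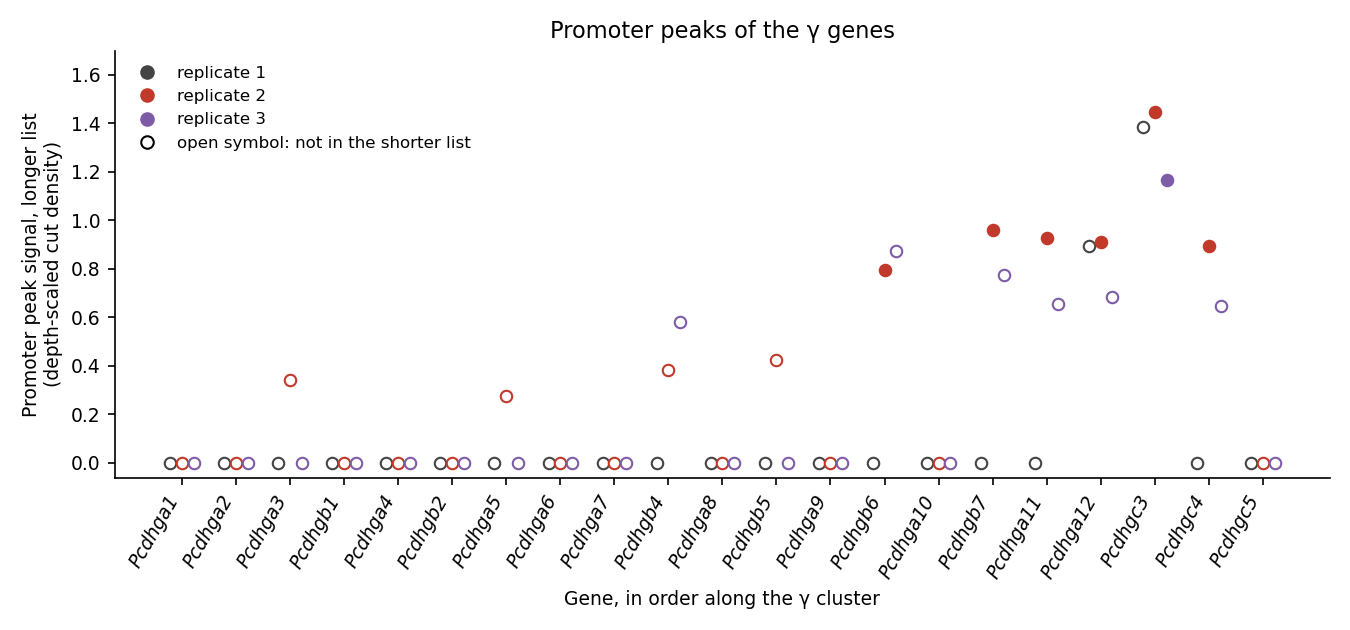
Signal of the promoter peak in the longer list for the 21 γ genes in their order along the cluster, with 1 point per replicate, filled where the peak was also in the shorter list and at 0 where no peak was listed. The genes from Pcdhga1 to Pcdhga9 have at most a signal of 0.580, and Pcdhgc3 has the highest points in all 3 replicates, 1.17 to 1.45.

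Open γ promoters lay towards the 3′ end of the cluster. Of the first 7 γ genes in order, 0, 2 and 0 had a longer-list peak in replicates 1, 2 and 3, of the middle 7 it was 0, 3 and 2, and of the last 7 it was 2, 5 and 5. Of all genes 57.1%, 62.2% and 60.7% had one. The first 7 and the middle 7 were below that share in each replicate. The last 7 were below it in replicate 1 but not in replicates 2 and 3. Spearman's rho between the signal and the distance from the start to the first constant exon was -0.40, -0.56 and -0.62 over the 21 genes. With the CpG ratio rho was 0.02, 0.47 and 0.34. These are descriptions over promoters that share their libraries and many values of 0, and no p-value is given. The order was not strict, since Pcdhga10 among the last 7 and Pcdhgc5 at the end had no peak.

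Even the strongest member was weak beside other open promoters. The highest member signal of a replicate lay between the 18.7 and the 25.5 percentile of all genes with a longer-list promoter peak. The median signal of those genes was 4.51, 4.97 and 4.17 in replicates 1, 2 and 3, about the level of Taf7, which lies between the β and γ genes. Among all longer-list peaks, at promoters or elsewhere, the highest member signal lay at the 52.9, 73.5 and 62.2 percentile in the same order. In bulk tissue a weak peak in all cells and a strong one in few cells cannot be told apart.

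Positions here are counted from the 5′ end of the gene model, its outermost start, and most γ peaks covered it or the bases just before it. In replicate 2 the peaks of Pcdhgb6, Pcdhgb7, Pcdhga11 and Pcdhgc3 were centred at -73.5, -39.5, -50.5 and -33.5 bp, upstream of it. Those of Pcdhga12 and Pcdhgc4 lay inside the gene model, centred 320.5 and 341.5 bp downstream, and in replicate 3 they were again downstream, at 333 and 322 bp. Both genes have further annotated starts there: the joined region covers one of Pcdhgc4, and that of Pcdhga12 lies 28 bp from one. The peak of Pcdhga11 also lies within 500 bp of a start of Gm26672, a gene model outside the protein-coding set, and the assay does not tell to which of them it belongs.

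Footprints are short stretches within open chromatin that are protected from the enzyme, as by a bound protein. Within 500 bp of the 5′ end of a member there were 4, 21 and 11 footprints in replicates 1, 2 and 3, and all but 1, at Pcdhb14, belonged to γ genes. At Pcdhgc3 a footprint recurred in all 3 replicates upstream of the 5′ end, from -115 to -109 in replicate 1, -119 to -110 in replicate 2 and -116 to -110 in replicate 3. Pcdhga12 likewise had one near 316 to 322 bp downstream in every replicate. At Pcdhgb6 a footprint of 24 bp in replicate 2, from -91 to -68, matched one of 23 bp in replicate 3, from -91 to -69. At Pcdhgb7 the pair was 28 bp from -76 to -49 and 25 bp from -76 to -52. Pcdhga11 had one of 26 bp from -57 to -32 in replicate 2, and in replicate 3 a shorter one of 8 bp inside it. These were the only member footprints of at least 20 bp, 14.3% of those in replicate 2 and 18.2% in replicate 3, beside 16.8% and 14.4% of all footprints, so their share was near that of all footprints.

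All 5 of these wide footprints covered the letters CGCTGT, here called the CGCT box, which contain the CGCT core of the conserved promoter element. This box was chosen after the footprints had been seen, so that coverage is a description. Searched on both strands from 250 bp upstream to 50 bp downstream of any start, the box was present at 18 of 21 γ promoters, 7 of 14 α promoters and 5 of 22 β promoters, 30 of the 57 members, against 22.8% of all protein-coding genes. Its matches on the γ genes' own strand began between -101 and -23 bp, upstream of the 5′ end. Pcdhga12, Pcdhgc4 and Pcdhgc5 lacked it in that window, but at Pcdhga12 a match at 324 to 329 bp downstream was overlapped by a footprint in replicate 1. Of those with the box many had no listed peak, namely 10 of the 18 γ promoters and 6 of the 7 α promoters. Apart from the wide footprints, the box was also met by footprints of 10 bp at Pcdhga3 in replicate 2 and 12 bp at Pcdhgb4 in replicate 3.

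**Figure D4:**
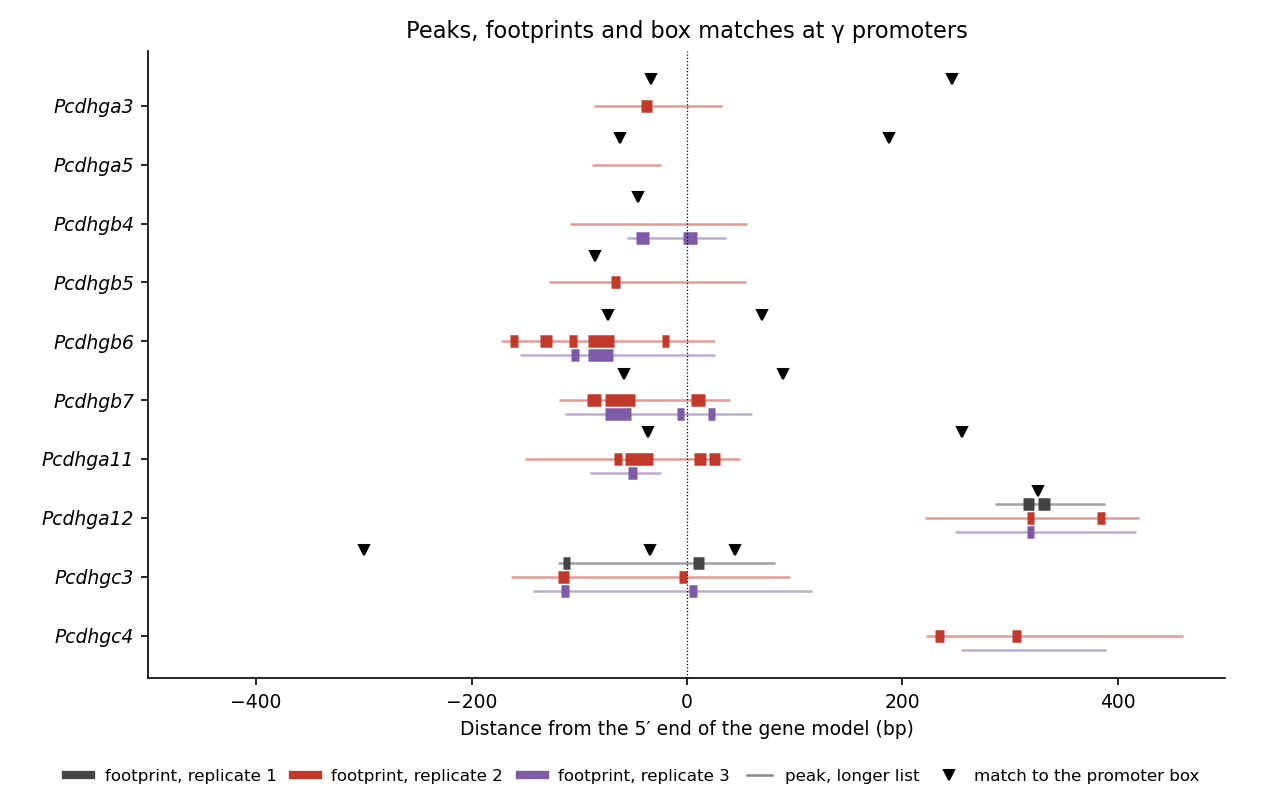
Position in bp from the 5′ end of the gene model (dotted line) of longer-list peaks (thin lines), footprints (thick bars) and matches to the promoter box (triangles) at the 10 γ promoters with a peak, with colours for replicates. The widest bars, 23 to 28 bp at Pcdhgb6, Pcdhgb7 and Pcdhga11, lie under a triangle between -91 and -32 bp, and at Pcdhga12 and Pcdhgc4 the signal is downstream of the 5′ end.

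A short core of the motif of CTCF, the letters AGNNGGCGC on either strand, occurred within 500 bp of any start at 10 of the 57 members, against 28.6% of all genes. With 1 start per gene the shares were closer, 17.5% of the members against 20.9% of all genes. By family these were 5 α, 3 β and 2 γ promoters, and no match was inside a footprint in any replicate. Of the 11 matches only 0, 0 and 1 lay in a longer-list peak in replicates 1, 2 and 3. The lack of footprints at them therefore says little about binding. CTCF binds variants that these letters do not cover, and the absence of a match says only that these letters are not in the window.

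Over the cluster and 100 kb on either side the longer lists joined into 40 regions, of which 15 lay over 1 kb from any annotated start and were called distal. The shorter list had a peak in all 3 replicates in 5 of them, 2 of them distal, and the longer list in 9. The replicate 2 list alone gave 15 of the 40. The 100 kb before the cluster held no listed peak in any replicate. Peaks of the shorter list in the cluster numbered 6.58 ± 5.03 per Mb (SD, n = 3), against 15.5 ± 5.35 per Mb in the genome. In the longer list the cluster had 17.5 ± 10.97 per Mb and the genome 23.4 ± 7.49. With the flanks included the longer list gave 21.9 ± 13.0 per Mb. Replicate 2 had 35.1 there against 30.9 in the genome, while replicates 1 and 3 lay below their genome values. The shorter list with the flanks gave 10.2 ± 6.38 per Mb, and every replicate lay below its genome value. The lower density was thus missing on that scale only in replicate 2 of the longer list.

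The 1 distal region within the cluster that the shorter list held in all 3 replicates lies between the α and β genes, at chr18:37218241-37218460. It starts 30.6 kb after the last α constant exon and is 39719 bp from the nearest annotated start. Its signals were 0.680, 1.26 and 0.919, a mean of 0.954 ± 0.293 (SD, n = 3), with 1, 4 and 3 footprints. A peak was thus present here in the shorter list in replicate 1, in which no member promoter was. The middle 200 bp of the region contain the CGCT box, present in 8.11% of the shorter-list peaks of replicate 2 searched in windows of that length, and the letters TCAGCACC, which make up part of the binding site of the neuronal repressor REST and are present in 1.84% of them. They also contain AGNNGGC, the shorter CTCF core, which 61.9% of those peaks contain, but not AGNNGGCGC, which 11% contain. These matches were searched on both strands and are descriptions of sequence. The CGCT box and TCAGCACC were chosen after the data had been seen, so their rarity among peaks is no support for binding here. An enhancer of the α genes is known from the stretch downstream of their constant exons, but none of the sources used here gives its position, and the region was not assigned to it.

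The regions around the constant exons were in the shorter list in at most 2 replicates. In the last intron of the α constant part, beside a start of Gm10544, a region at chr18:37178421-37178611 had a signal of 0.284 in replicate 2, in the shorter list, and 0.218 in replicate 3, in the longer list. At the γ genes a region at chr18:37822541-37822800 had longer-list signals of 1.39, 1.61 and 1.24, a mean of 1.41 ± 0.187 (SD, n = 3). It overlaps an annotated exon of Pcdhgc5, 1079 bp from the nearest start, and was in the shorter list in replicates 2 and 3. Its mean differed from that of the Pcdhgc3 promoter by less than the SD of either. The first γ constant exon, at 37825021 to 37825079, was covered by a longer-list peak of 0.745 in replicate 2 and 0.882 in replicate 3. The last γ constant exon held a peak of 0.477 in replicate 2 and 0.738 in replicate 3, the latter in the shorter list.

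Downstream of the γ genes lies Diaph1, which encodes an actin nucleating formin and runs in the opposite direction, and a large part of the accessible chromatin of the locus lay in and beside it. The 100 kb after the cluster held 1940, 5390 and 3013 of the 3446, 11572 and 6482 bases under the FDR limit in the cluster and its flanks. In that stretch 1.94%, 5.39% and 3.01% of bases passed the FDR limit, against 0.264%, 1.91% and 1.25% in the γ stretch. A region 41.7 kb after the last γ exon, at chr18:37883561-37883740 in a Diaph1 intron, had signals of 4.44, 6.41 and 4.61, a mean of 5.15 ± 1.09 (SD, n = 3), with 4, 3 and 4 footprints. Another, 10.3 kb after that exon at chr18:37852181-37852420, had 2.34, 3.28 and 2.47, a mean of 2.70 ± 0.508 (SD, n = 3). It is 987 bp from an annotated start and so was not counted as distal. It contains AGNNGGCGC, and the other contains the CGCT box but not AGNNGGCGC. Neither contains AGATAA, a form of the site of GATA factors that 14.1% of the shorter-list peaks of replicate 2 contain. These letters too were chosen after the data had been seen. Further Diaph1 intron sites were listed in some replicates only, among them those 35.5 kb after the γ genes (1.51 in replicate 2, shorter list, and 0.633 in replicate 3, longer list) and 66.3 kb after them (1.46 in replicate 2 alone). Enhancers of the β and γ genes are known from this side of the cluster, and no region was assigned to one.

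**Figure D5:**
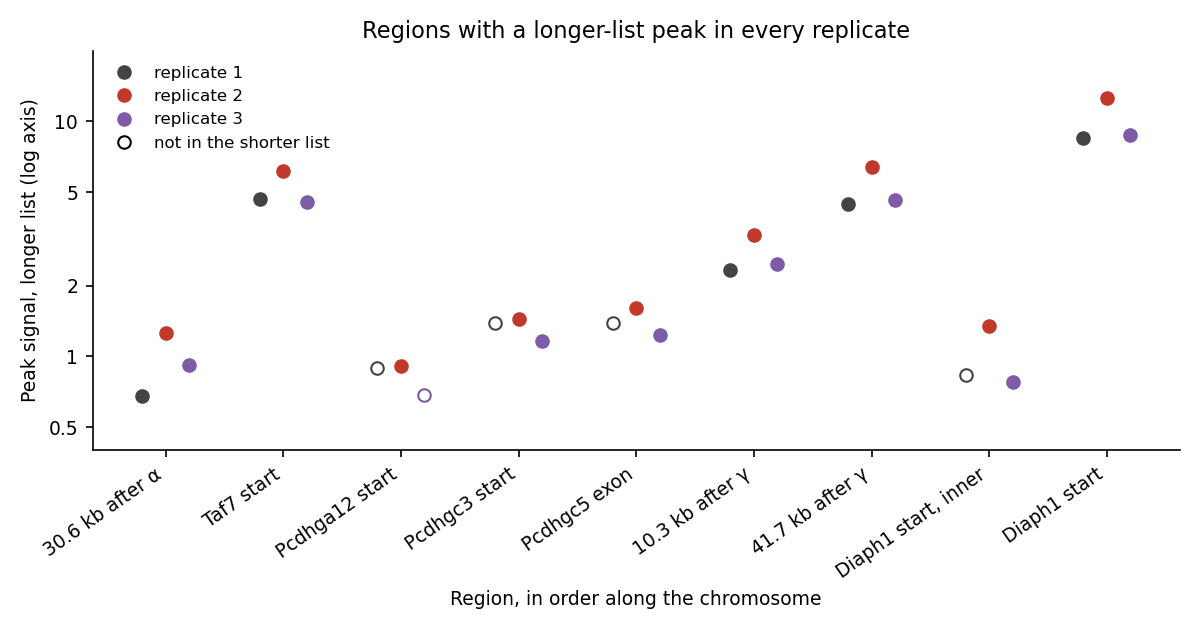
Signal on a log axis of the 9 regions over the cluster and its flanks that had a longer-list peak in every replicate, in chromosomal order, with open points where the peak was not in the shorter list. The inner Diaph1 region lies in an intron within 500 bp of a start. The 4 regions inside the protocadherin cluster other than Taf7 lie between 0.680 and 1.61, below Taf7, the sites 10.3 and 41.7 kb after the γ genes and the Diaph1 start.

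The promoters of other protein-coding genes at the locus were of 2 kinds. Taf7, which encodes a subunit of the general transcription factor TFIID and sits between the β and γ genes, was open at 4.67, 6.18 and 4.52, a mean of 5.12 ± 0.914 (SD, n = 3). Diaph1 was open at 8.49, 12.5 and 8.76. Slc25a2, a mitochondrial carrier gene next to Taf7, and the read-through gene models Gm42416, Gm37013 and Gm37388, which start among the α genes, had no peak in either list. The open promoter of Taf7 thus neighbours the first γ genes, of which the first 7 had no listed peak in replicates 1 and 3.

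Genes known to act on the cluster were accessible. All 14 of the CTCF and cohesin genes found in the annotation were open in all 3 replicates in the shorter list, with Zfp143, Stag1 and Smc3 the strongest. Ctcf had signals of 6.26, 5.22 and 5.84, and Rad21, a core subunit of the cohesin ring, had 7.50, 10.6 and 6.78. All 18 of the repressor and DNA methylation genes were open too. Smchd1 was at 7.09 ± 1.29, Rest at 2.77 ± 0.410 and Dnmt3b, a DNA methyltransferase linked to the silencing of these promoters, at 0.950 ± 0.241 (SD, n = 3 each), with Rcor1, Dnmt1 and Uhrf1 the highest. Of 18 genes for signalling partners and proteases of the protocadherins, 15 were open, led by Psen2 and Adam10, which take part in cleaving the proteins, and Pdcd10, and Nlgn1 and Ret were not. Lists of widely expressed genes are expected to have open promoters in most tissues, so these counts say nothing particular about the cluster.

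Other adhesion genes were also less often open in all 3 replicates than the 50.9% of all genes. Of 12 non-clustered protocadherins, single genes elsewhere in the genome, Pcdh17 (2.46 ± 0.330) and Pcdh7 (1.37 ± 0.302; SD, n = 3) were open in all 3 replicates in the shorter list and 5 in the longer list. In at least 1 replicate 7 of the 12 were open in the shorter list, and in replicate 2 also 7, shares near those of all genes, and 10 had a longer-list peak in some replicate. Pcdh1 and Pcdh11x had no peak in the shorter list. Of 46 other cadherins and relatives 6 were open in all 3, with Cdh24, Clstn3 and Cdh23 the strongest, and Cdh1 and Cdh10 had no shorter-list peak. Among other large gene families, 1 of 1135 olfactory receptor genes (0.0881%) and 3 of 39 Hox genes (7.69%) were open in all 3 replicates.

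The number of open members moved with the replicate, and so did other promoters. The summed shorter-list signal of the members was 0, 5.94 and 1.17 in replicates 1, 2 and 3, and that of the longer list 2.28, 8.21 and 5.67. The sums that follow are from the shorter list. For the 12 hepatoblast genes the number open in the shorter list was 3, 8 and 1 and the summed signal 3.88, 8.84 and 3.34, with Alb, Afp and Dlk1 among those at 0 throughout. Of the 16 neuron genes 3, 6 and 6 were open, with a summed signal of 2.43, 4.53 and 5.53. Map2, Elavl4 and Syn1 were open in all 3, and Snap25, Rbfox3, Dcx and Elavl3 were among 10 at 0 throughout. Endothelial genes open numbered 1, 3 and 2 of 8, with Egfl7 in all 3 replicates and Cdh5 and Emcn in none, and the summed signal ran from 1.61 to 2.41. Macrophage genes open were 0, 2 and 0 of 8, with Adgre1 and C1qa at 0, and a summed signal of 0 to 2.28. Mesenchymal genes, with Col1a1, Pdgfra and Reln open throughout and Acta2 and Col1a2 at 0, were 3, 4 and 3 of 8 with a sum of 5.64 to 6.07, and erythroid genes 12, 13 and 12 of 14 with a sum of 56.7 to 101.9. The part of the peak number, depth or cell makeup of each replicate in the count of open members was not tested.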

How the data were processed

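Peak lists, FDR stretches and footprints were used per replicate, all in mm10 and made per sample from filtered alignments without pooling, per the notes deposited beside them. Signal in the deposited lists is a peak's maximal cut density, which the authors scaled to depth. Deposited FDR values are p-value type measures, listed only where below 0.05, and deposited footprints all carry a q-value of 0.01. The aligner and callers were not given in the sources used here. Gene starts came from GENCODE M21 and bases from GRCm38. No sequence of the locus is printed.

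Members, lists and tests were chosen with earlier results of these data known. Named genes were members with any promoter peak, all C-type genes, every other protein-coding gene at the locus, and of each of 11 lists the 3 strongest among those open in all replicates, the first 2 in alphabetical order without a shorter-list peak, and the fixed genes Ctcf, Rad21, Smchd1, Rest, Dnmt3b, Gata1, Klf1, Alb, Afp, Snap25 and Rbfox3. Dlk1 and Pcdhgb8 were named beyond this rule, and 1 listed gene is not reported here. Peaks sharing at least 1 bp over replicates were joined into regions, and those over 1 kb from any start were called distal. With 1 group no test was possible, and values are mean ± SD over 3 replicates, which measure only the spread between these samples. The motifs CGCTGT, TCAGCACC and AGATAA were chosen after seeing the data. Promoter assignment was tested on simulated data. Python 3.11.15, numpy 2.4.6, scipy 1.17.1, pandas 2.3.3 and bedtools 2.31.1 were used.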

Additional observations from a re-analysis of the deposited data

How the results depend on the processing

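The count of 0 members open in all 3 replicates became 2 in the longer list, and leaving out each replicate gave 0 to 1. The 6 members open in at least 1 replicate became 14 in the longer list, 1 with the stronger 50% of peaks, 1 with as many strongest peaks as in the smallest list, and 1 to 6 with 1 replicate left out, the 1 arising without replicate 2. The 5 regions in all 3 became 9 in the longer list, and 5 to 9 with 1 left out. The 2 distal regions became 1 with the stronger 50%, 1 with equal numbers of peaks, and 2 to 4 with 1 left out. The 3 members with a base under an FDR of 0.05 became 1 at 0.01 and 0 at 0.001, and 3 to 8 with 1 left out, the 8 without replicate 1. The 10 members with AGNNGGCGC became 6 in the narrow window (10.5%, against 16.1% of all genes) and 49 with AGNNGGC (86%, against 95.7%). With 1 start per gene they stayed at 10 (17.5%, against 20.9%). CGCTGT, a different set of letters chosen after seeing the data, was present at 30 members (52.6%, against 22.8%). Footprints over the region, 48.7 per replicate, ranged from 30.3 to 61.5, and 55 open related genes from 44 to 64. Promoter windows of 250 and 1000 bp changed no count of members. No paired analysis was possible because there is 1 group. Replicate 1 had the fewest peaks and the lowest implied depth, but replicate 3, with the highest, had fewer peaks than replicate 2, and the part of depth was not tested.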
